A study of Mus musculus with 20 samples.

Results

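The 5 genes described here carry ketone body synthesis and export in the liver: Acat1 and Bdh1, which encode enzymes of the mitochondrial pathway, and the monocarboxylate transporter genes Slc16a1, Slc16a6 and Slc16a7. They were taken by symbol, and all 5 were found among 55487 rows of the count table and among the 16312 genes that passed the filter on low counts. Liver RNA was sequenced from female C57BL/6N mice aged 15 weeks in 4 groups of 5 libraries each: Plin2-null (Plin2-/-) mice fasted for 24 h, Plin2+/+ mice fasted for 24 h, Plin2-null mice on chow and Plin2+/+ mice on chow. Plin2 encodes perilipin 2, a protein that coats lipid droplets. Which part of the gene was targeted, and in which cells it is inactive, is not given in the labels.

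In fasting, hepatic mitochondria oxidise fatty acids to acetyl-CoA and turn part of it into acetoacetate. BDH1 reduces acetoacetate to 3-hydroxybutyrate, and both ketone bodies leave the hepatocyte through monocarboxylate transporters to fuel brain, heart and muscle. The liver makes ketone bodies but uses little of them itself, because hepatocytes hardly express the transferase that starts their breakdown.

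Plin2 had a mean of 90.5 CPM in Plin2-null fasted livers, against 1494 CPM in Plin2+/+ fasted livers, where CPM is the count scaled to library depth and, by TMM, to library composition. In fed mice it had 19.7 CPM in Plin2-null livers, against 260.3 CPM in Plin2+/+ livers. The log2 fold changes were -4.04 in fasted and -3.72 in fed mice (edgeR adjusted p = 3.08e-10 and 1.30e-09), and no Plin2-null library reached the lowest Plin2+/+ library of its feeding state (130 against 1092 CPM in fasted and 32.1 against 196 CPM in fed mice). Libraries held 25506471 to 65579038 counts. A gene with 18S ribosomal RNA sequence took 4.87% to 24.8% of a library, with the top value in Plin2-null fasted replicate 3. That library had the lowest TPM (a scale that also divides by gene length) of its group for all 5 genes, and Plin2+/+ fasted replicate 3 had the lowest of its group for 4 of them. Among the cell type markers, those of hepatocytes had the highest sum in every library. These 8 genes summed to 77863 CPM or more, while 5 adipocyte and 4 skeletal muscle markers summed to 0.214 CPM or less. Alb alone had 58403 CPM or more. The hepatocyte sum was 77863 to 112340 CPM in Plin2-null fasted, 104687 to 159443 CPM in Plin2+/+ fasted, 85049 to 103860 CPM in Plin2-null fed and 88444 to 147184 CPM in Plin2+/+ fed libraries.

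The promoters of Slc16a1 and Bdh1 are shown because the RefSeq table used (GRCm38.p6) matched these 2 of the 5 genes. They run from 250 bases before to 50 after an annotated start site. Capitals mark matches, on either strand, to any of 8 motifs: AGGTCA (a nuclear receptor half-site), the PPAR response element (that half-site repeated after 1 base), CACGTG (E-box), TGACGTCA and TGACG (cyclic AMP response element and its shorter form), GTAAACA (FOXO), GGGCGG (GC box) and TATAAA (a core promoter motif).
Slc16a1, chr3:104638414-104638713, plus strand: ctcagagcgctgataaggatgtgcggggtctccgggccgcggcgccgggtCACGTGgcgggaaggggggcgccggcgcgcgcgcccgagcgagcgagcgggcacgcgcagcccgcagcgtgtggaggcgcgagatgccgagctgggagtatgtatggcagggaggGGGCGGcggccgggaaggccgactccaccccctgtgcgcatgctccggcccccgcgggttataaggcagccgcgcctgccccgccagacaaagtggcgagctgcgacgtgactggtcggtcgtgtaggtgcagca
Bdh1 upstream start, chr16:31422047-31422346, plus strand: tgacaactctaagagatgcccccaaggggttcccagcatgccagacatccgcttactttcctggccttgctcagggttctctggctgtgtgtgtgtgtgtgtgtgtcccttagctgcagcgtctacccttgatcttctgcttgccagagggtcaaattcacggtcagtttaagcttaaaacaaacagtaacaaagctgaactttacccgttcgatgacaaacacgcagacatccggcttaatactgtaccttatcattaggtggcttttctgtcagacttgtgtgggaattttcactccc
Bdh1 downstream start, chr16:31428503-31428802, plus strand: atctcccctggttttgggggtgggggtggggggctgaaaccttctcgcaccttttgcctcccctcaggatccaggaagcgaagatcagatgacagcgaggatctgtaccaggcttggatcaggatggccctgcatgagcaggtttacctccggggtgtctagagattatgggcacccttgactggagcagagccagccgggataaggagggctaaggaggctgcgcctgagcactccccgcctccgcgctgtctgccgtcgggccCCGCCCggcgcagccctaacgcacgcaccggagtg
The Slc16a1 promoter held an E-box, whose first base lies 200 bases before the start site, and a GC box 85 bases before it. Among 32851 mouse promoters of the same length, 7.15% held CACGTG and 35.7% held GGGCGG. The upstream Bdh1 promoter held none of the 8 motifs, and the downstream one held a GC box on the minus strand, with its first base 16 bases after the start site. The PPAR response element was in 0.0396% of all promoters, its half-site AGGTCA in 16.3%, TGACGTCA in 1.79%, TGACG in 20.8%, GTAAACA in 3.65% and TATAAA in 13.6%. These are matches of letters, not sites of binding. Guanine and cytosine made up 73.7% of the Slc16a1 promoter, 48.3% of the upstream Bdh1 promoter and 63.7% of the downstream one.

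Per gene length, the order of the genes by mean TPM was the same in every group, with Acat1 first, then Bdh1, Slc16a1, Slc16a7 and Slc16a6. Acat1 had 315 ± 51.8 TPM in Plin2-null fasted, 328 ± 19.8 in Plin2+/+ fasted, 177 ± 27.1 in Plin2-null fed and 191 ± 30.4 in Plin2+/+ fed livers (SD, n = 5 each). Bdh1 had 185 ± 48.5, 129 ± 38.3, 141 ± 19.9 and 129 ± 38.2 TPM in the same order of groups. Both enzymes thus stood above the 3 transporters in all 4 groups.
Slc16a1 had 78.7 ± 10.4 TPM in Plin2-null fasted, 61.3 ± 14.2 in Plin2+/+ fasted, 55.5 ± 6.60 in Plin2-null fed and 54.0 ± 11.5 in Plin2+/+ fed livers. Slc16a7 had 46.5 ± 8.06, 57.7 ± 14.3, 20.4 ± 3.81 and 19.9 ± 4.04 TPM in these groups. Slc16a6 was the lowest, with 8.88 ± 5.18, 3.90 ± 1.89, 9.36 ± 2.92 and 9.40 ± 4.50 TPM.
The ranges of some neighbours in this order overlapped. In Plin2+/+ fasted livers the ranges of Slc16a1 and Slc16a7 overlapped, and 2 of 5 libraries had Slc16a1 above Slc16a7. The ranges of Acat1 and Bdh1 overlapped in both fed groups and those of Slc16a7 and Slc16a6 in Plin2+/+ fed livers, although in each of these 5 of 5 libraries kept the order.

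**Figure D1:**
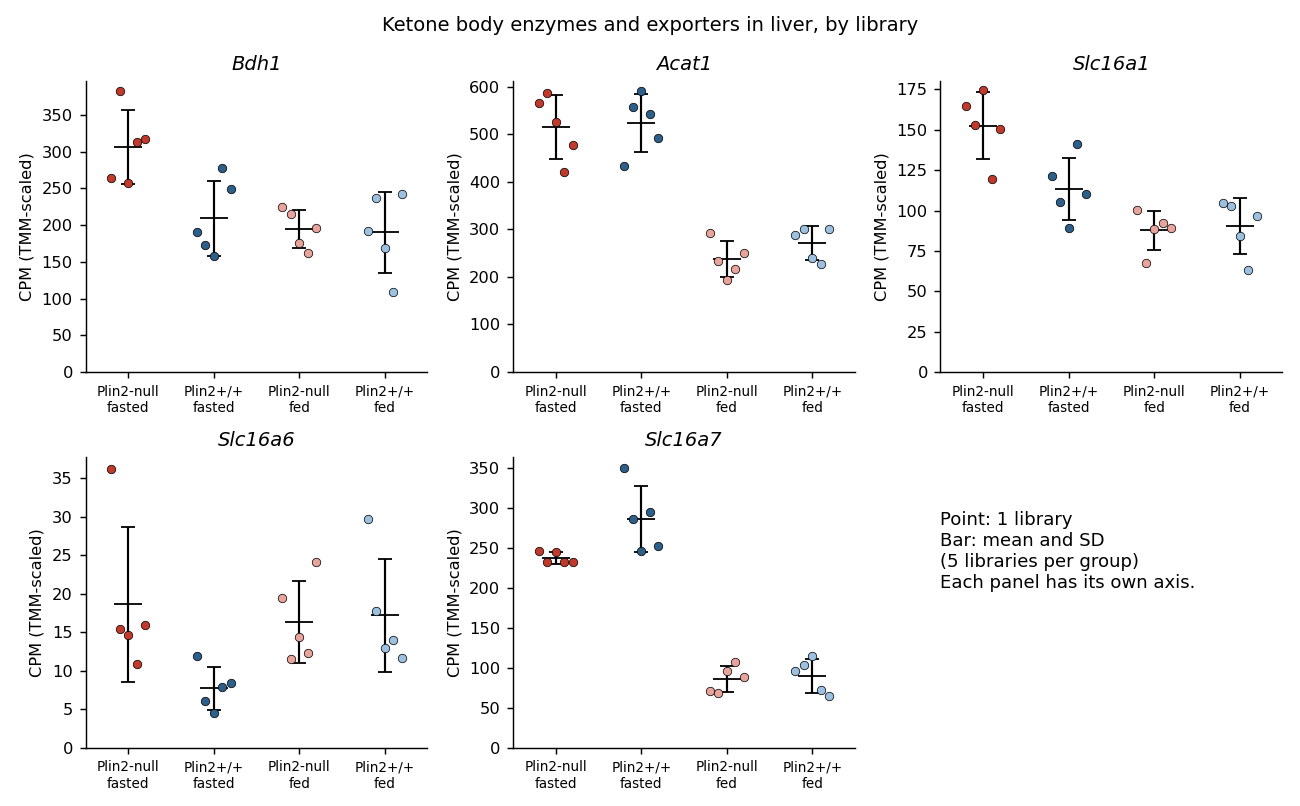
CPM of the 5 genes (vertical axes from 0, each panel on its own scale) in each library of the 4 groups (horizontal axis), with group mean and SD as bars. Acat1 and Slc16a7 lay higher in fasted than in fed mice of both genotypes without overlap, and Slc16a6 was lowest in Plin2+/+ fasted livers with a mean of 7.74 CPM.

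Acat1 encodes the mitochondrial acetoacetyl-CoA thiolase, which condenses acetyl-CoA at the entry of the pathway (Ensembl ENSMUSG00000032047, chromosome 9, 53580522 to 53610382, minus strand, GRCm38). It had 565, 587, 526, 420 and 478 CPM in Plin2-null fasted livers, and 434, 557, 592, 543 and 492 CPM in Plin2+/+ fasted livers. In fed mice it had 293, 233, 194, 216 and 250 CPM in Plin2-null livers, and 288, 301, 241, 227 and 302 CPM in Plin2+/+ livers. Every fasted library stood above every fed library, whatever the genotype.
Fasting raised Acat1 in Plin2-null mice with a log2 fold change of 1.12 ± 0.13 (SE, edgeR adjusted p = 6.14e-07). In Plin2+/+ mice the rise was 0.95 ± 0.13 (edgeR adjusted p = 4.05e-06). Between genotypes the log2 difference was -0.02 ± 0.13 in fasted mice (edgeR adjusted p = 0.924).

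Bdh1 encodes the mitochondrial 3-hydroxybutyrate dehydrogenase, which interconverts acetoacetate and 3-hydroxybutyrate (ENSMUSG00000046598, chromosome 16, 31422280 to 31458901, plus strand). It had 264, 382, 257, 313 and 317 CPM in Plin2-null fasted livers, and 191, 172, 158, 277 and 249 CPM in Plin2+/+ fasted livers. Among fed mice the gene had 224, 215, 176, 162 and 197 CPM in Plin2-null livers, and 192, 237, 169, 109 and 243 CPM in Plin2+/+ livers. All Plin2-null fasted libraries stood above all Plin2-null fed libraries, while the Plin2+/+ fasted and fed ranges overlapped.
Bdh1 rose on fasting in Plin2-null mice by a log2 fold change of 0.66 ± 0.19 (edgeR adjusted p = 0.00873). This call rests on the scaling: with library size alone the value was 0.45 (edgeR adjusted p = 0.111), and with limma on log2(TPM + 1) it was 0.35 (adjusted p = 0.242), where the TPM ranges of fasted and fed Plin2-null libraries overlapped. In Plin2+/+ mice the fasting change was 0.14 ± 0.19 (edgeR adjusted p = 0.577), and with library size alone -0.01.
The genotype difference of Bdh1 in fasted mice was 0.55 ± 0.19 and did not pass (edgeR adjusted p = 0.0880). With each of the 20 libraries left out in turn it ran from 0.46 to 0.67 (edgeR adjusted p = 0.0433 to 0.230). It passed in 1 of these 20 cases, without Plin2+/+ fasted replicate 4, the highest Bdh1 library of its group. In TPM, Bdh1 stood at 0.584 ± 0.116 of Acat1 in Plin2-null fasted, 0.393 ± 0.109 in Plin2+/+ fasted, 0.798 ± 0.0797 in Plin2-null fed and 0.666 ± 0.126 in Plin2+/+ fed livers (SD, n = 5 each). The ratio was thus lower in fasted than in fed mice of both genotypes, and its ranges overlapped in Plin2+/+ mice and did not in Plin2-null mice.

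Slc16a1 encodes MCT1, a widely expressed proton-coupled carrier of lactate, pyruvate and ketone bodies (ENSMUSG00000032902, chromosome 3, 104638668 to 104658462, plus strand). It had 165, 153, 175, 120 and 150.3 CPM in Plin2-null fasted livers, and 122, 105, 89.4, 141 and 110.0 CPM in Plin2+/+ fasted livers. Fed Plin2-null livers had 101, 67.5, 88.6, 92.3 and 89.3 CPM, and fed Plin2+/+ livers 105, 103, 84.5, 63.1 and 96.8 CPM. The Plin2-null fasted libraries were all above the Plin2-null fed ones, and the Plin2+/+ fasted and fed ranges overlapped.
Slc16a1 rose on fasting in Plin2-null mice by 0.80 ± 0.14 on the log2 scale (edgeR adjusted p = 1.76e-04). In Plin2+/+ mice the change was 0.33 ± 0.14 (edgeR adjusted p = 0.0722). It passed without Plin2+/+ fasted replicate 3 (0.40, edgeR adjusted p = 0.0350) or without Plin2+/+ fed replicate 1 (0.39, edgeR adjusted p = 0.0487), the lowest fasted and the highest fed library of that genotype. These were 2 of 20 cases with 1 library left out, with values from 0.21 to 0.40 (edgeR adjusted p up to 0.228).
In fasted mice the genotype difference was 0.43 ± 0.14 (edgeR adjusted p = 0.0877). With each of the 20 libraries left out in turn it ran from 0.35 to 0.51 (edgeR adjusted p = 0.0445 to 0.206). It passed in 1 of these 20 cases, without Plin2+/+ fasted replicate 4, the highest of its group.

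Slc16a7 encodes MCT2, a carrier with high affinity for monocarboxylates (ENSMUSG00000020102, chromosome 10, 125219270 to 125389465, minus strand). It had 246, 232, 244, 232 and 233 CPM in Plin2-null fasted livers, and 349, 286, 246, 295 and 251 CPM in Plin2+/+ fasted livers. In fed mice it had 71.2, 68.7, 95.3, 107 and 87.8 CPM in Plin2-null livers, and 96.2, 103, 115, 72.3 and 64.3 CPM in Plin2+/+ livers. Every fasted library stood far above every fed one. The Plin2-null fasted libraries lay within a narrow span in CPM, but in TPM they ran from 33.9 to 53.9.
Of the 5 genes Slc16a7 had the highest fasting estimate in both genotypes. It rose by a log2 fold change of 1.47 ± 0.15 in Plin2-null mice (edgeR adjusted p = 1.26e-07). In Plin2+/+ mice it rose by 1.67 ± 0.15 (edgeR adjusted p = 1.78e-08). The genotype difference in fasted mice was -0.27 ± 0.15 (edgeR adjusted p = 0.264).

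Slc16a6 encodes MCT7, known in zebrafish as a hepatocyte exporter of 3-hydroxybutyrate (ENSMUSG00000041920, chromosome 11, 109450855 to 109473598, minus strand). It had 36.2, 15.5, 14.6, 10.9 and 15.9 CPM in Plin2-null fasted livers, and 11.9, 6.09, 4.48, 7.84 and 8.42 CPM in Plin2+/+ fasted livers. Among fed mice the gene had 19.5, 11.5, 14.3, 12.2 and 24.1 CPM in Plin2-null livers, and 29.7, 17.7, 13.0, 14.0 and 11.7 CPM in Plin2+/+ livers. The Plin2+/+ fasted libraries were the low ones, overlapping each of the other 3 groups at 1 edge, and Plin2-null fasted replicate 1 stood far above the rest of its group.
Slc16a6 fell on fasting in Plin2+/+ mice, with a log2 fold change of -1.15 ± 0.34 (edgeR adjusted p = 0.0105). Without Plin2+/+ fed replicate 1 the value was -0.86 (edgeR adjusted p = 0.0397). In Plin2-null mice the change was 0.19 ± 0.33 (edgeR adjusted p = 0.697), and it was -0.20 without Plin2-null fasted replicate 1, -0.02 with library size alone and -0.15 with limma on log2(TPM + 1).
In fasted mice Slc16a6 was higher in Plin2-null than in Plin2+/+ livers by a log2 difference of 1.26 ± 0.34, at the edge of the threshold (edgeR adjusted p = 0.0496). The call was lost under 8 of 11 other settings, among them limma voom (1.19, adjusted p = 0.0578), and when any 1 of 17 of the 20 libraries was left out. It held without Plin2-null fasted replicate 4, Plin2+/+ fasted replicate 5 or Plin2+/+ fed replicate 1 (edgeR adjusted p = 0.0331, 0.0404 and 0.0403). Without Plin2-null fasted replicate 1 the difference was 0.87 (edgeR adjusted p = 0.102).
The counts of Slc16a6 ran from 152 to 1685 per library, the lowest of the 5 genes. Its exons share 49 bases with the miRNA gene Gm25540 on the same strand, which had median counts of 2 to 10 in the 4 groups. They also share 1052 bases with Amz2 and 48 with Arsg, both on the opposite strand. Median counts in Plin2-null fasted, Plin2+/+ fasted, Plin2-null fed and Plin2+/+ fed livers were 514, 549, 749 and 757 for Amz2. For Arsg they were 1879, 1626, 915 and 841. No source used here states the strand setting of the counting, so reads of these genes cannot be told apart with certainty. Exons of Bdh1 and Slc16a7 overlap the antisense gene Gm15743 and the gene Gm47862, each with a median of 0 counts in every group.
Cholangiocyte markers, 6 genes of the bile duct epithelium, summed to 17.6 to 25.8 CPM in Plin2-null fasted, 12.3 to 23.4 in Plin2+/+ fasted, 30.03 to 48.2 in Plin2-null fed and 33.2 to 51.3 in Plin2+/+ fed livers. On fasting, 1 of 6 fell in Plin2-null mice (Spp1) and 3 of 6 in Plin2+/+ mice (Krt7, Sox9 and Spp1), and none of the 6 was at 0 in all libraries or passed with edgeR between genotypes in fasted mice, where 3 had an unadjusted p under 0.05 and DESeq2 called 0. In bulk tissue, fewer cells of a type and less RNA per cell cannot be told apart, and the part of bile duct cells in the Slc16a6 values was not tested. Lymphocyte markers, 6 genes, summed to 2.66 to 4.15 CPM in Plin2-null fasted, 1.65 to 2.91 in Plin2+/+ fasted, 2.87 to 4.05 in Plin2-null fed and 4.07 to 4.71 in Plin2+/+ fed livers. Of these, 3 fell on fasting in Plin2+/+ mice (Cd3d, Cd79a and Ms4a1), and none was at 0 in all libraries. Over all genes tested, 18.1% fell on fasting in Plin2-null and 21.7% in Plin2+/+ mice. Between genotypes in fasted mice the B cell marker Ms4a1 was higher in Plin2-null livers, by a log2 difference of 1.44 (edgeR adjusted p = 0.0437), the same direction as Slc16a6. Its level was low, with means of 0.587 against 0.224 CPM. Means of Cd79a (0.926 against 0.416) and Cd3e (0.707 against 0.557) were also higher in Plin2-null fasted livers. Cd3d (0.401 against 0.383) and Trbc2 (0.286 against 0.269) were close, and Nkg7 was lower (0.434 against 0.502). DESeq2 called Ms4a1 as well, edgeR with library size alone did not (adjusted p = 0.0926), and 2 of the 6 had an unadjusted p under 0.05. The part of lymphocytes in the Slc16a6 values was not tested either.

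**Figure D2:**
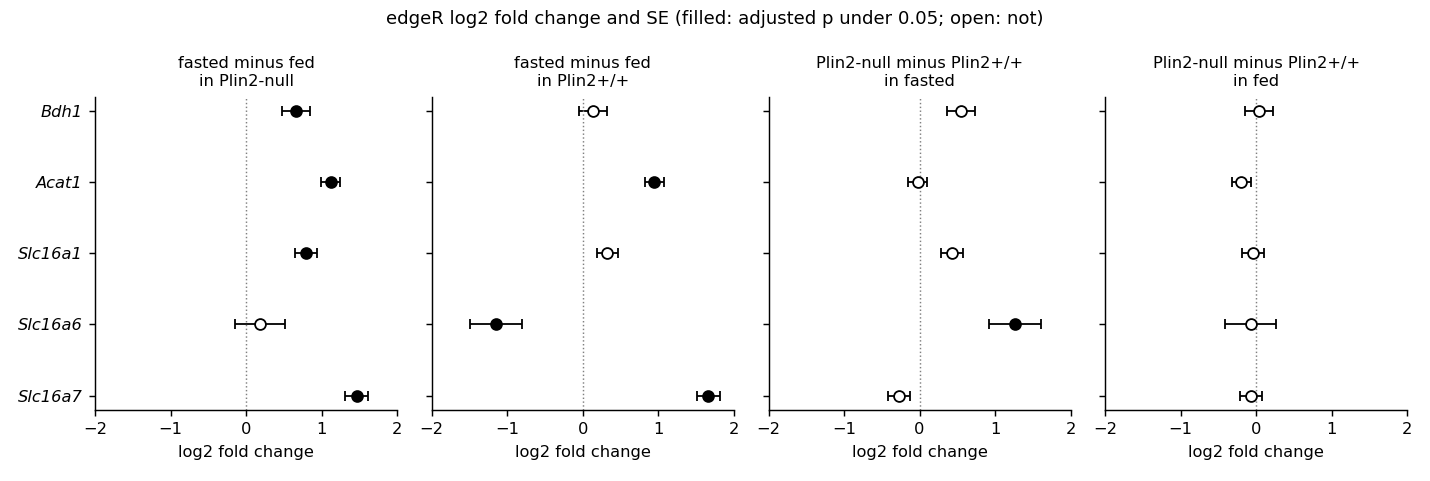
Log2 fold change and SE of the 5 genes (rows) in the 4 pairwise comparisons (panels), from the edgeR fit over 20 libraries, with filled circles for an adjusted p under 0.05. Slc16a6 was the sole gene with a negative fasting estimate, -1.15 in Plin2+/+ mice, and no circle is filled in the comparison of fed genotypes.

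Read as a group, 4 of the 5 genes rose and none fell on fasting in Plin2-null mice, where 18.0% of the genes tested rose and 18.1% fell. Their median log2 fold change was 0.80, against -0.01 over all genes tested. In Plin2+/+ mice 2 of the 5 rose and 1 fell, where 20.9% of the genes tested rose and 21.7% fell, with medians of 0.33 and -0.01. With library size alone, 3 of the 5 rose in Plin2-null mice, since Bdh1 did not pass, and all-gene medians moved to -0.21 in Plin2-null and -0.16 in Plin2+/+ mice. All 5 fasted libraries were above all 5 fed ones for 4 of the 5 genes in Plin2-null mice, against 12.6% of the genes tested, and for 2 of the 5 in Plin2+/+ mice, against 13.2%.
Cell type markers moved with fasting as well. Of 8 Kupffer cell markers, 5 fell in Plin2-null and 6 in Plin2+/+ mice, and their sum was 295 to 374 CPM in Plin2-null fasted, 209 to 374 in Plin2+/+ fasted, 305 to 729 in Plin2-null fed and 391 to 518 in Plin2+/+ fed livers. Of 8 stellate cell markers, 2 fell in Plin2-null and 4 in Plin2+/+ mice, and their sum was 520 to 642 CPM in Plin2-null fasted, 535 to 605 in Plin2+/+ fasted, 509 to 650.4 in Plin2-null fed and 471 to 812 in Plin2+/+ fed livers. Of 8 markers of sinusoidal endothelium, Lyve1 and Pecam1 rose and Dnase1l3 and Stab2 fell in both genotypes, and Kdr fell in Plin2+/+ mice; with library size alone Pecam1 did not pass in either genotype. Their sum was 395 to 494 CPM in Plin2-null fasted, 428 to 544 in Plin2+/+ fasted, 381 to 507 in Plin2-null fed and 443 to 524 in Plin2+/+ fed livers. Of 5 erythroid markers Alas2 alone passed on fasting with edgeR, and it fell in both genotypes. DESeq2 also called Hba-a1, which rose in Plin2-null mice (log2 fold change 0.63 with edgeR, adjusted p = 0.0600). The pancreatic acinar markers Cela1 and Cela2a, the 2 of 5 that were tested, fell in both genotypes. Cela1 had group means of 3.59 to 19.3 CPM, while Cpa1, Pnlip and Ctrb1 averaged 0.0135 CPM or less in every group. Of 8 hepatocyte markers, 1 rose and 2 fell in Plin2-null mice, and 3 rose and 2 fell in Plin2+/+ mice. No marker of these 6 lists was at 0 in all libraries, and their part in the 5 genes' values was not tested.
Between genotypes in fasted mice, 1 of the 5 genes passed, where 1.51% of the genes tested were higher and 1.73% lower in Plin2-null livers. Bdh1, Slc16a1 and Slc16a6 had an unadjusted p under 0.05, while no gene of the 5 had separate ranges, against 1.87% of the genes tested that were higher and 2.21% that were lower in all Plin2-null libraries. Some markers moved with this comparison too, with 1 of 8 hepatocyte and 1 of 8 stellate cell markers called by edgeR. The hepatocyte marker Cps1, the first enzyme of the urea cycle, was lower in Plin2-null livers by a log2 difference of -0.97, and the stellate cell marker Colec11 was higher by 0.52 (edgeR adjusted p = 0.0318 for each). DESeq2 called both, and with library size alone Colec11 did not pass (edgeR adjusted p = 0.0899). The Kupffer cell marker Cd5l and the erythroid marker Hba-a1 were called higher in Plin2-null livers by DESeq2 and not by edgeR. The part of these markers in the genotype differences of the 5 genes was not tested.
In fed mice none of the 5 passed with edgeR, DESeq2 or limma voom, and 0 of 5 had an unadjusted p under 0.05, where 0.0184% of the genes tested passed. The estimates were 0.03 ± 0.19 for Bdh1, -0.20 ± 0.13 for Acat1, -0.05 ± 0.14 for Slc16a1, -0.08 ± 0.33 for Slc16a6 and -0.07 ± 0.15 for Slc16a7.

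Whether fasting changed a gene differently in the genotypes was tested by the interaction term, in which a positive value means a higher fasting change in Plin2-null mice. None of the 5 genes passed with edgeR, DESeq2 or limma voom, as was the case for all of the genes tested with edgeR (0% called, 2250 of 16312 at an unadjusted p under 0.05, 62 called by DESeq2 and 2 by limma voom). Slc16a6 had 1.34 ± 0.48 (edgeR adjusted p = 0.267, unadjusted p = 0.0112) and Slc16a1 had 0.47 ± 0.20 (edgeR adjusted p = 0.323, unadjusted p = 0.0304). Bdh1 had 0.52 ± 0.26, Acat1 0.17 ± 0.18 and Slc16a7 -0.20 ± 0.21 (edgeR adjusted p = 0.379, 0.664 and 0.667). A rise called in Plin2-null and not in Plin2+/+ livers, as for Bdh1 and Slc16a1, was therefore not shown to differ between the genotypes.

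The makeup of the 3 transporters is given as shares of their summed TPM, and so depends on gene length. Annotated exons cover 4426 bases for Slc16a1, 4883 for Slc16a6 and 11839 for Slc16a7. In fasted livers Slc16a7 had a higher mean CPM than Slc16a1, 237 against 152 in Plin2-null and 286 against 114 in Plin2+/+ mice. In fed livers the means were close, at 85.9 against 87.6 and 90.0 against 90.5 CPM. By CPM or TPM each transporter overlapped between the fasted genotypes. Slc16a1 made up 56.9%, 60.3%, 62.6%, 55.4% and 59.7% in Plin2-null fasted livers, and 46.3%, 48.4%, 48.2%, 54.6% and 52.0% in Plin2+/+ fasted livers. Slc16a7 made up 31.8%, 34.2%, 32.7%, 40.1% and 34.5% in Plin2-null fasted livers, and 49.6%, 49.1%, 49.6%, 42.7% and 44.4% in Plin2+/+ fasted livers. Slc16a6 made up 11.3%, 5.53%, 4.73%, 4.57% and 5.74% in Plin2-null fasted livers, and 4.10%, 2.53%, 2.19%, 2.75% and 3.61% in Plin2+/+ fasted livers. For none of the 3 did the genotypes overlap, the shares of Slc16a1 and Slc16a6 being higher and that of Slc16a7 lower in Plin2-null livers.
These shares are a description with no test. How often such shares would separate the genotypes for other genes was not counted, and the 3 move together because they add up to the whole. Guanine and cytosine made up 37.7% of the longest Slc16a7 transcript, 42.9% for Slc16a1 and 49.0% for Slc16a6. For the enzymes the values were 52.1% for Bdh1 and 45.5% for Acat1. Per 10 percentage points of this content, log2 CPM, centred per gene, changed by 0.00399 to 0.269 in Plin2-null fasted libraries. In Plin2+/+ fasted libraries it changed by -0.355, -0.335, -0.0763, 0.00682 and 0.186. The part of this trend in the shares, or in the ratio of Bdh1 to Acat1, was not tested. In fed livers the genotypes overlapped for every transporter. Slc16a1 held 65.1 ± 2.68% in Plin2-null fed and 64.7 ± 5.29% in Plin2+/+ fed livers, Slc16a6 held 10.9 ± 2.85% and 11.0 ± 3.28%, and Slc16a7 held 23.9 ± 3.60% and 24.2 ± 4.75% (SD, n = 5 each). The summed TPM of the 3 was 134 ± 20.9 in Plin2-null fasted, 123 ± 29.0 in Plin2+/+ fasted, 85.3 ± 9.59 in Plin2-null fed and 83.3 ± 16.8 in Plin2+/+ fed livers.

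**Figure D3:**
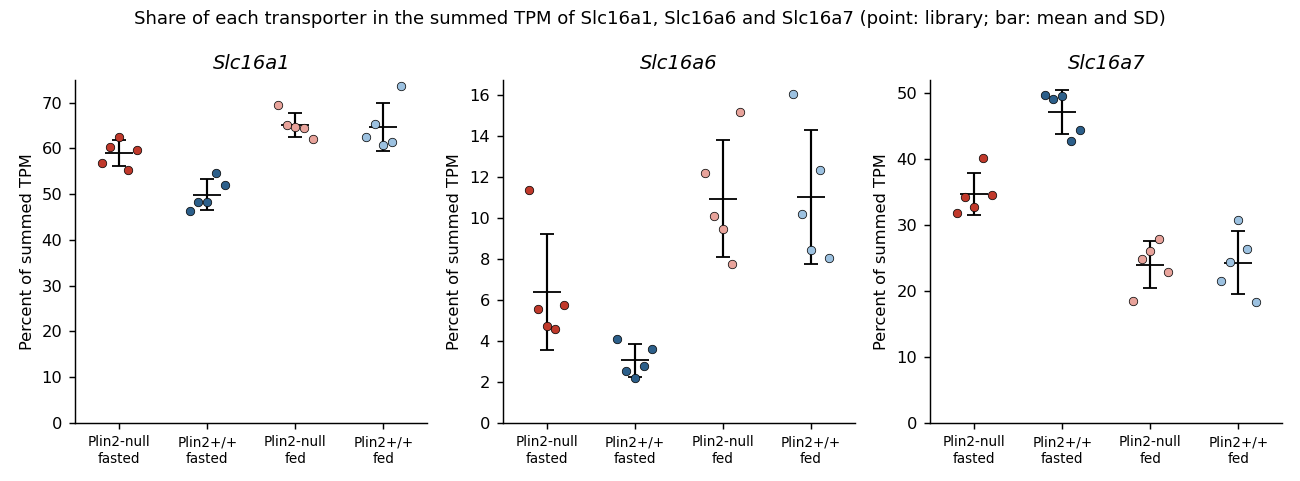
Percent of the summed TPM of Slc16a1, Slc16a6 and Slc16a7 taken by each (panels, vertical axes from 0) in each library of the 4 groups, with mean and SD. Slc16a7 held 31.8% to 40.1% in Plin2-null fasted and 42.7% to 49.6% in Plin2+/+ fasted libraries, with no overlap, and below these in fed libraries of both genotypes.

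Among the genes that feed the pathway, the 10 of mitochondrial acyl import and beta-oxidation all rose on fasting in Plin2-null mice, and 7 of 10 rose in Plin2+/+ mice. Over all genes tested, 18.0% rose in Plin2-null and 20.9% in Plin2+/+ mice. Cpt1a, the carnitine acyltransferase that admits fatty acids to mitochondria, rose by a log2 fold change of 2.00 in Plin2-null and 1.75 in Plin2+/+ mice (edgeR adjusted p = 2.82e-11 and 2.02e-10). The medium-chain dehydrogenase Acadm rose by 1.95 and 1.79 (edgeR adjusted p = 5.68e-11 and 1.87e-10). Hadh, Acads and Acaa2, which act on short-chain to medium-chain acyl units, did not pass in Plin2+/+ mice, where their values were 0.22, 0.10 and 0.20, against 0.85, 0.73 and 0.67 in Plin2-null mice. The rise of Acads in Plin2-null mice did not pass with library size alone (0.53, edgeR adjusted p = 0.158). The interactions of Hadh, Acads and Acaa2 were 0.63, 0.63 and 0.47 (edgeR adjusted p = 0.239, 0.451 and 0.335). Between genotypes none of the 10 passed with edgeR in fasted mice, with 1 at an unadjusted p under 0.05 and 1 called by DESeq2 (Hadh), nor in fed mice, with 0 by either count.

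Of 10 other enzymes of ketone body and acetate use, 7 were tested, and 6 fell in Plin2-null mice and 5 in Plin2+/+ mice on fasting, while none rose. Over all genes tested, 18.1% fell in Plin2-null and 21.7% in Plin2+/+ mice. Aacs, the cytosolic acetoacetyl-CoA synthetase that returns acetoacetate to lipid synthesis, had log2 fold changes of -2.85 in Plin2-null and -2.90 in Plin2+/+ mice (edgeR adjusted p = 4.02e-05 and 2.67e-05). Acat2, the cytosolic thiolase of sterol synthesis, had log2 fold changes of -2.02 and -2.06 (edgeR adjusted p = 9.01e-08 and 5.01e-08), opposite in sign to Acat1. Acat3, a close relative of Acat2 with which it may share reads, had -2.02 and -2.24. Acss2, the cytosolic acetyl-CoA synthetase, had -2.30 and -2.09, and Bdh2 had -2.28 and -2.72 (edgeR adjusted p at most 2.85e-05 for Acat3, Acss2 and Bdh2). Oxct1, the transferase that starts ketone body breakdown, was low, with means of 3.33 CPM in Plin2-null fasted, 3.96 in Plin2+/+ fasted, 4.70 in Plin2-null fed and 5.20 in Plin2+/+ fed livers. Its log2 fold change on fasting was -0.50 in Plin2-null and -0.39 in Plin2+/+ mice (edgeR adjusted p = 0.0438 and 0.103), and with library size alone it was called in both. Between genotypes none of the 7 passed with edgeR or DESeq2 in fasted or fed mice, and 0 had an unadjusted p under 0.05.

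Of 14 other monocarboxylate carriers and their chaperones, 9 were tested. In Plin2-null mice Slc16a3, Slc16a5 and Slc16a13 rose on fasting, and in Plin2+/+ mice Slc16a5, Slc16a10 and Slc16a13 rose while Slc16a12 fell. Over all genes tested, 18.0% rose and 18.1% fell in Plin2-null mice, and 20.9% rose and 21.7% fell in Plin2+/+ mice. Slc16a3 averaged 0.274 CPM or less in all groups, and neither DESeq2 (adjusted p = 0.117) nor edgeR with library size alone (adjusted p = 0.161) called its rise. With library size alone Slc16a12 fell in Plin2-null mice too. Slc16a10, an aromatic amino acid transporter, averaged 122 ± 26.2 CPM in Plin2-null fasted livers, against 231 ± 48.5 CPM in Plin2+/+ fasted livers. With edgeR it was the 1 gene of the list called between genotypes in fasted mice, with a log2 difference of -0.92 (adjusted p = 0.0191), opposite in sign to Slc16a6. Over all genes tested, 1.51% were higher and 1.73% lower in Plin2-null livers there. Of the 9 genes, 4 had an unadjusted p under 0.05 there and DESeq2 called 2, the other being Slc16a11, at 1.08 with edgeR (adjusted p = 0.0626) and 1.06 with DESeq2 (adjusted p = 0.0196). Bsg, whose product basigin carries MCT1 to the cell surface, had a fasting change of 0.29 in Plin2-null and -0.07 in Plin2+/+ mice (edgeR adjusted p = 0.0655 and 0.660).

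Of 13 regulators of ketogenesis, 7 rose in Plin2-null and 8 in Plin2+/+ mice on fasting, and none fell. Of all genes tested, 18.0% rose in Plin2-null and 20.9% in Plin2+/+ mice. Creb3l3, Fgf21, Foxo1, Ncor1, Ppara and Ppargc1a rose in both genotypes. Rptor passed in Plin2-null mice alone, and Insr and Sirt1 in Plin2+/+ mice alone. The list was not split by the direction in which a gene acts on ketogenesis. With library size alone 3 rose and 1 fell (Foxa2) in Plin2-null mice, and 6 rose in Plin2+/+ mice. Ppara, the nuclear receptor that drives fatty acid oxidation in fasting, rose by 0.65 in Plin2-null and 0.85 in Plin2+/+ mice (edgeR adjusted p = 0.00947 and 0.00101), the first of which did not pass with library size alone (0.48, edgeR adjusted p = 0.124). Fgf21, a fasting hormone of the liver, rose by 4.77 and 3.68 (edgeR adjusted p = 1.44e-05 and 8.26e-05). Ppargc1a, a coactivator of mitochondrial gene expression, averaged 18.4 ± 7.94 CPM in Plin2-null fasted livers, against 52.4 ± 29.5 CPM in Plin2+/+ fasted livers. In fasted mice, where 1.73% of the genes tested were lower in Plin2-null livers, it was the 1 regulator called between genotypes. The log2 difference was -1.52 (edgeR adjusted p = 0.0415). The interaction of Ppargc1a was -1.39 (edgeR adjusted p = 0.291).

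**Figure D4:**
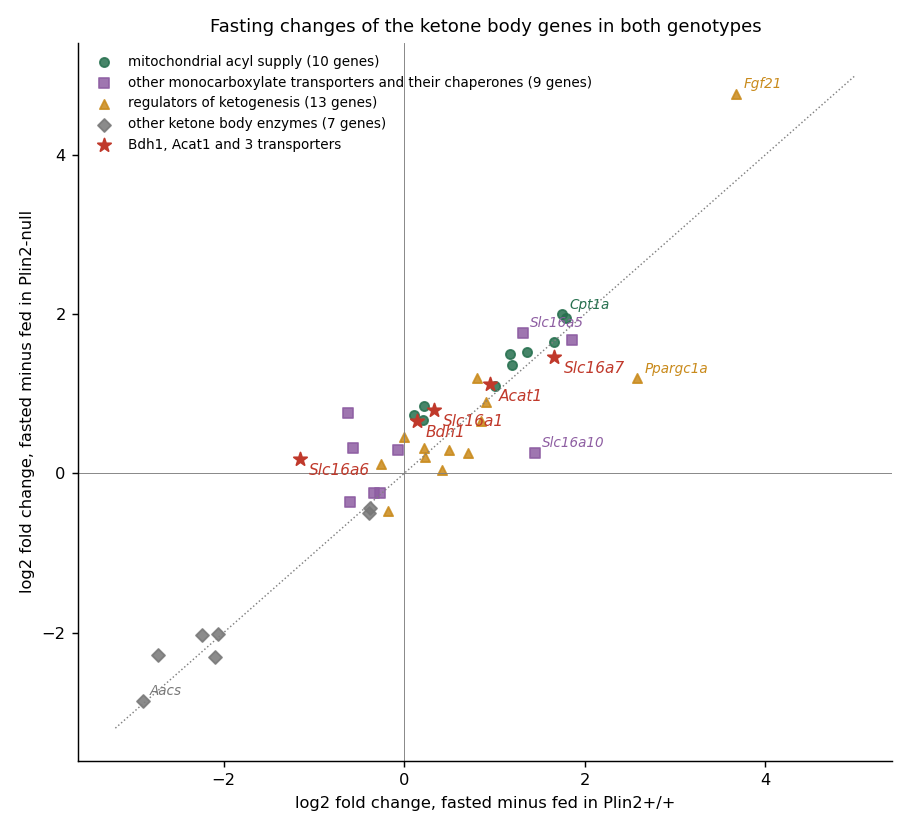
Log2 fold change on fasting in Plin2+/+ mice (horizontal axis) against Plin2-null mice (vertical axis) for the 5 genes (stars) and the tested genes of 4 lists (7 to 13 genes each), with equal change on the dotted line. Slc16a6 lies left of the line at -1.15 in Plin2+/+ and 0.19 in Plin2-null mice, while Ppargc1a and Slc16a10 lie right of it.

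Likeness was measured as the mean absolute difference of log2 CPM over the 20 libraries, after centring each gene, among 8816 named genes with a mean of at least 5 CPM. The genes most like Acat1 were Acadvl, the very-long-chain acyl-CoA dehydrogenase (0.10), Tspan31 (0.11) and Timm8a1 (0.13), against a mean deviation of 0.52 for Acat1 itself. Slc16a7 was followed most closely by Tmem56 (0.17), Ddhd2 (0.18) and Morc4 (0.19), against its own 0.79. Bdh1 was closest to Flot2 (0.15), Nelfcd (0.15) and Uck1 (0.17), against 0.33, and Slc16a1 to Cpox, Perp and Lonp2 (0.14, 0.15 and 0.15), against 0.31. Slc16a6 had no gene as near, with Slc30a10 at 0.27, Sh3pxd2a at 0.32 and Egln3 at 0.32, against 0.51. Acat1 thus had the nearest and Slc16a6 the farthest neighbours of the 5.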

How the data were processed

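For the 20 libraries the authors deposited raw counts by Ensembl gene, and TPM values in a second table. The mRNA libraries keep strand, per the labels' protocols. HISAT2 1.2.1 and featureCounts 1.4.6-p1 are named, with the human build GRCh38, per the submitters' processing notes, so the build used is not clear. Of 10 libraries the labels state the feeding state alone; they were taken as Plin2-/-, the genotype of the design that the other 10 leave. Titles number each library separately. No pair of libraries within a group agreed within sampling noise (40 pairs, smallest chi-square per degree of freedom 45.3). The labels give no batch, litter or day, and p-values rest on the differences among these libraries.

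Counts were fitted in R 4.3.3 with edgeR 4.0.16 (filterByExpr, TMM, glmQLFit robust, glmQLFTest) over all 20 libraries with 1 coefficient per group. Benjamini-Hochberg adjustment ran over 16312 genes, with a threshold of 0.05. SE was derived from the log2 fold change and its F statistic. Alternatives used DESeq2 1.42.0, limma 3.58.1 (voom, and log2 of deposited TPM values plus 1 or 0.1), other scalings and filters, each library left out, and 2 settings chosen after seeing the data: the share of the 18S-like gene as a covariate, and each library's trend with GC content removed. TPM, which shares its denominator with the 18S-like gene, was used for levels between genes. Symbols matched for 55141 of 55487 identifiers. Positions are from GENCODE M21 (GRCm38), and figures were drawn with matplotlib 3.10.9.

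The 5 genes, the lists and the markers were chosen with earlier results of these data known. Named are the 5 genes, the members of 4 pathway lists, Plin2, cell type markers beside a result and the 3 genes most like each of the 5; some genes this rule takes are not reported here. Slc16a1, Slc16a6 and Slc16a7 shares and the ratio of Bdh1 to Acat1 carry no test.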

Additional observations from a re-analysis of the deposited data

Results flagged for a closer look

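Among 60 sets of 5 libraries (CPM, TPM, shares, the sum of the transporters and the ratio of the enzymes in each group), a single library stood far from the other 4 in 4 cases, all of them Slc16a6; by chance about 1 in 20 sets would. Slc16a6 in Plin2-null fasted replicate 1 was the highest of its group in CPM (36.2), in TPM (17.9) and as a share of the summed transporters (11.3%). Slc16a6 in Plin2+/+ fed replicate 1 was the highest of its group in TPM (17.1). Their part in the Slc16a6 comparisons is given by the values without them: 0.87 for Plin2-null over Plin2+/+ in fasted mice, and -0.86 for fasted over fed in Plin2+/+ mice, both on the log2 scale.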

How the results depend on the processing

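No paired analysis was possible because no title number is shared by libraries of different groups. Of 25 results (5 genes, 5 comparisons), 259 of 270 values under other settings kept their side of the threshold, and 11 fell below it. No sign changed where the main or the other value passed. Signs did change among values that passed in neither, such as Slc16a6 on fasting in Plin2-null mice with library size alone. Bdh1 on fasting in Plin2-null mice fell below it with library size alone (0.45), limma on log2(TPM + 1) (0.35) and on log2(TPM + 0.1) (0.36). Slc16a6 between genotypes in fasted mice fell below it with limma voom (1.19), library size alone (1.26), no filter (1.25), log2(TPM + 1) (0.97), log2(TPM + 0.1) (1.14), the compared groups alone (1.26), the 18S-like share as covariate (1.37) and the GC trend removed (1.27), with adjusted p of 0.0538 to 0.184; it held with DESeq2 (adjusted p = 0.00460), RLE factors (0.0489) and a filter at 10 CPM (0.0367). The cause was not tested.

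Leaving out each library in turn gave Slc16a6 in fasted mice 0.87 to 1.47 (edgeR adjusted p = 0.0331 to 0.144), Bdh1 there 0.46 to 0.67, Slc16a1 there 0.35 to 0.51, and Slc16a1 on fasting in Plin2+/+ mice 0.21 to 0.40; of 500 such values 479 kept their side, 17 fell below it and 4 passed.

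Counts of genes called moved too. Fasting in Plin2-null mice called 5896 genes, and 3582 with the filter at 10 CPM, which tested 7850 genes; fasting in Plin2+/+ mice called 6957, and 3957 with it. The genotype difference in fasted mice called 528 genes, against 1404 with DESeq2, 108 with library size alone, 319 with no filter, 27 with log2(TPM + 1), 39 with log2(TPM + 0.1), 104 with the compared groups alone, 173 with the 18S-like covariate and 13 to 1794 with a library left out. In fed mice it called 3, against 7 with DESeq2. The interaction called 0, against 62 with DESeq2, 2 with limma voom and 1 with no filter, and 0 to 1 with a library left out. The share of fasting calls that rose was 49.9% in Plin2-null and 49.1% in Plin2+/+ mice, against 24.5% and 30.8% with library size alone, 18.2% and 30.2% with log2(TPM + 1), and 18.1% and 29.6% with log2(TPM + 0.1). Of genotype calls in fasted mice 46.6% were higher in Plin2-null livers, against 64.8% with library size alone and 30.3% with the GC trend removed. Slc16a6, at 152 to 1685 counts a library, was the least precise of the 5 genes.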
